A study of Dreissena polymorpha with 10 samples.

Results

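Of the 3541 transcript accessions on a zebra mussel array, 63 had lower signals in September than in both other sampling months while February and June lay close together. Zebra mussels (Dreissena polymorpha) are freshwater bivalves, and these came from a wild population at Riba-Roja, on the Ebro in Spain. A transcript was taken when its probe was well above background on all 4 June arrays, and its September mean lay at least 1 on the log2 scale below the June mean and the February mean. The June and February means also had to lie within 1 of each other, and the highest September array had to lie below the lowest June array. The 63 transcripts were thus chosen by their season means and array ranges, so the seasonal differences below are a description and carry no test. Of the 1465 transcripts well above background on all 4 June arrays, the 63 are 4.3%.

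The sexes are separate in zebra mussels. Gametes ripen in the gonad ahead of spawning and are shed into the water, and after spawning the emptied gonad breaks down the gametes that remain. Where a tissue sample includes gonad, transcripts of maturing eggs and sperm can therefore make up a share of its RNA that varies over the year. The files name the probes by accession, without a gene description, and 0 accessions were found in the RefSeq gene table (assembly UMN_Dpol_1.0). No gene name, genome position, sequence or role is given for any transcript below, and the tissue could not be checked against marker genes.

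Each array was hybridised with RNA from a portion of the body, and the labels name no treatment. February (the period before spawning) had 1 female and 1 male array, June (spawning) had 2 female and 2 male arrays, and September (gonad resorption) had 2 female and 2 male arrays. The number of animals behind each array is not stated, so the p-values below reflect only array-to-array spread, which may be technical. The titles give the 2 February arrays as female and male, while their descriptions name the opposite sexes; the titles are followed here.

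September female replicate 2 stood apart before any comparison. Its mean processed signal was 766.3, against 8138 to 10999 on the other 9 arrays, and 22.4% of its probes were well above background, against 28.9% to 36.0% on the others. It lay on a slide of its own, as did September male replicate 2, and both had another scan date than the 8 arrays of slide 1. The lowest signal of any probe well above background was -8.32 on that array, against -11.3 to -10.2 on the others, so low signals have less room to be measured on it. Results that rest on this array are given with and without it.

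In September the 63 transcripts had a median difference of -1.75 from June and of -1.73 from February, on the log2 scale. The corresponding medians over all 1465 transcripts detected in June were 0.04 and 0.11. The September minus June differences ran from -4.65 to -1.03, with quartiles of -2.26 and -1.50. As folds, the transcripts were 2.04 to 25.1 times lower in September than in June, with a median of 3.37, and 2.02 to 13.6 times lower than in February, with a median of 3.31. Of the 63, 39 differed from June by under 2 on the log2 scale, 17 by 2 to 3 and 7 by 3 or more. Most of the set thus consisted of moderate differences. For scale, 12.5% of the transcripts detected in June had a September mean at least 1 below June, 10.1% at least 1 below February, and 15.8% had every September array below every June array. The rule used these conditions, so nothing is read from the counts. Because whole tissue was measured, fewer cells of a type and less RNA per cell cannot be told apart.

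**Figure D1:**
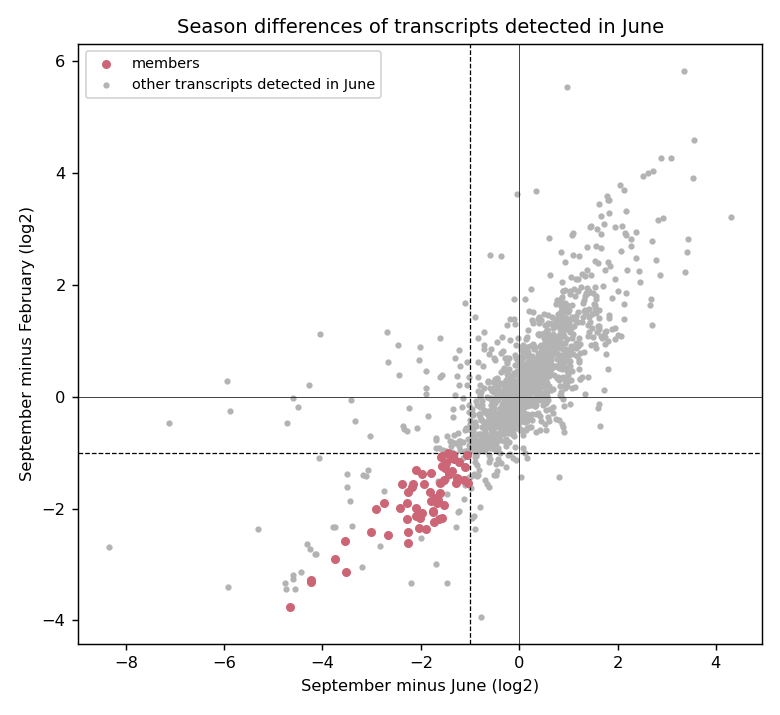
Each point is 1 of the 1465 transcripts detected on all June arrays, by its September minus June difference (horizontal, log2) and its September minus February difference (vertical, log2). The 63 members (red) lie below and left of the dashed lines at -1, between -4.65 and -1.03 against June; the grey points in the same corner failed another condition of the rule.

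The lower level on each September array is fixed by the rule, since no September array may reach a June array. The sizes per array are a description. Relative to each transcript's June mean, the median over the 63 was -1.48 on September female replicate 1, -2.69 on September female replicate 2, -1.45 on September male replicate 1 and -1.52 on September male replicate 2. On the 4 June arrays it lay between -0.17 and 0.14, and on the February arrays it was -0.06 in the female and -0.18 in the male. Over the other 1402 transcripts detected in June, the September medians lay between -0.03 and 0.19. The 3 bright September arrays therefore gave nearly the same displacement, and the dim array a larger one. Between the lowest June array and the highest September array the gap was 0.04 to 3.70, with a median of 0.74. For 58 of the 63 (92.1%, against 18.4% of transcripts detected in June), both February arrays also lay above all 4 September arrays. The rule's conditions on the means largely fix this, so nothing is read from it.

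**Figure D2:**
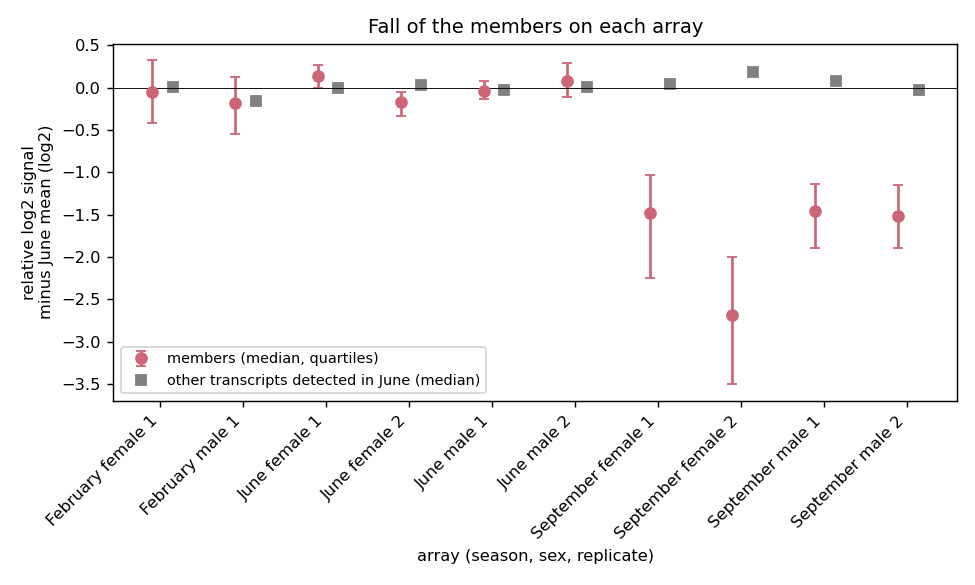
Points give the median over the 63 members (red, with quartiles as bars) and over the 1402 other transcripts detected in June (grey squares) on each array, as relative log2 signal minus the transcript's June mean (log2). The members lie at -2.69 to -1.45 on the September arrays and at -0.18 to 0.14 on the others.

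Detection thinned in September, mostly on the dim array. On the September arrays, 60 of the 63 were well above background in female replicate 1, 35 in female replicate 2, 62 in male replicate 1 and 63 in male replicate 2. All 63 were so on the June arrays by the rule, and 62 on both February arrays. Altogether 35 transcripts stayed well above background on all 10 arrays, and 25 others missed detection only on September female replicate 2. None was undetected on every September array, so no difference of the 63 kept probes was given as a bound. However, 25 were detected on only 3 of the 4 September arrays, 2 on 2 and 1 on 1. Their September means and folds include readings not well above background, so those sizes are not fully measured.

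AY070165 had the largest difference from June. Its relative log2 signal was -5.98 and -4.78 in February (female, male), -4.55 and -4.72 in June females, -4.56 and -4.16 in June males, -8.42 and -9.89 in September females and -8.79 and -9.50 in September males. The season means were -5.38 ± 0.85 (SD, n = 2) in February, -4.49 ± 0.24 (SD, n = 4) in June and -9.15 ± 0.67 (SD, n = 4) in September. All 4 September arrays lay over 2 units below the lowest array of the other months, and the sexes overlapped within September and within June. September was 25.1 times lower than June and 13.6 times lower than February. The probe was well above background on 3 of 4 September arrays, and the September minus June difference was -4.41 without the dim array. The other 3 tested probes of AY070165 gave -4.49 to -3.75. With normexp background correction, which keeps dim spots above 0, the September minus June difference was -3.13 against -4.65. The September minus February difference under normexp was -2.31 against -3.77.

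AF086635 was 18.9 times lower in September than in June, and it was the member with the widest spread between the sexes. Its signal was -1.39 in the February female and -5.87 in the February male. In June it was -1.08 and -1.28 in females and -4.23 and -4.21 in males, and in September -5.12 and -7.80 in females and -5.30 and -9.54 in males. The June females stood about 3 units above the June males, and in September neither sex lay above the other. All 10 arrays detected it. Its season means were -3.63 ± 3.16 (SD, n = 2) in February, -2.70 ± 1.76 (SD, n = 4) in June and -6.94 ± 2.12 (SD, n = 4) in September. The lowest June male and the highest September female were separated by 0.89, so the seasons did not overlap, but the February male lay below 2 of the 4 September arrays. The September minus February difference of -3.31 was -1.07 without the February female and -5.54 without the February male, so it rested on which February array was kept. On slide 1 alone the September minus June difference was -2.51 against -4.24 on all arrays. The other 4 tested probes of AF086635 gave -4.44 to -3.84.

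AM230054 was lower in September by a similar amount. It had -7.52 and -6.15 in February (female, male), -6.14 and -6.88 in June females, -5.53 and -4.96 in June males, -11.4 and -10.2 in September females and -9.33 and -9.55 in September males. Males were higher than females in each month on every array. September was 18.8 times lower than June, but only the 2 male arrays were well above background in September, so the size rests partly on signals near background. With normexp the September minus June difference was -1.90 against -4.23, and the September minus February difference was -0.47 against -3.27. Of its other 4 tested probes, 3 had September minus June differences of -3.92 to -2.57. The other was not well above background on any September array and gives no usable difference.

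Among transcripts detected on all September arrays, EY433912 had the largest difference after AF086635. It had -1.66 and -1.89 in February (female, male), -1.31, -1.85, -1.55 and -1.64 in June (2 females, then 2 males), and -4.05, -4.30, -4.22 and -4.45 in September in the same order. February and June overlapped, while the 4 September arrays lay close together and over 2 units lower. The means were -4.26 ± 0.17 in September and -1.59 ± 0.22 in June (SD, n = 4 each), a 6.35-fold lower level in September. The dim array gave the same reading as the other 3, and the difference was -2.65 without it. Its other tested probe gave -2.87.

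AJ517676 and EY433853 had the brightest probes of the 63, which says nothing of amounts between transcripts. AJ517676 had 0.69 and 2.05 in February (female, male), 2.28, 1.98, 2.20 and 2.26 in June (2 females, then 2 males), and -0.18, -0.15, -0.18 and -0.25 in September. The September arrays agreed closely, with a mean of -0.19 ± 0.04 against 2.18 ± 0.14 in June (SD, n = 4 each), and September was 5.19 times lower. The February female minus male difference was -1.36, and the September minus February difference of -1.56 was -0.88 without the male one. All 5 of its probes were lower in September than in June, by -3.09 to -2.37. EY433853 had 0.29 and 1.1 in February, 0.49, 0.15, -0.47 and 0.45 in June, and -1.33, -2.73, -0.82 and -1.06 in September, 3.12 times lower than June. One June male came within 0.35 of the highest September array. Its 3 probes differed in size, with September minus June differences of -1.64, -1.49 and -0.37.

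**Figure D3:**
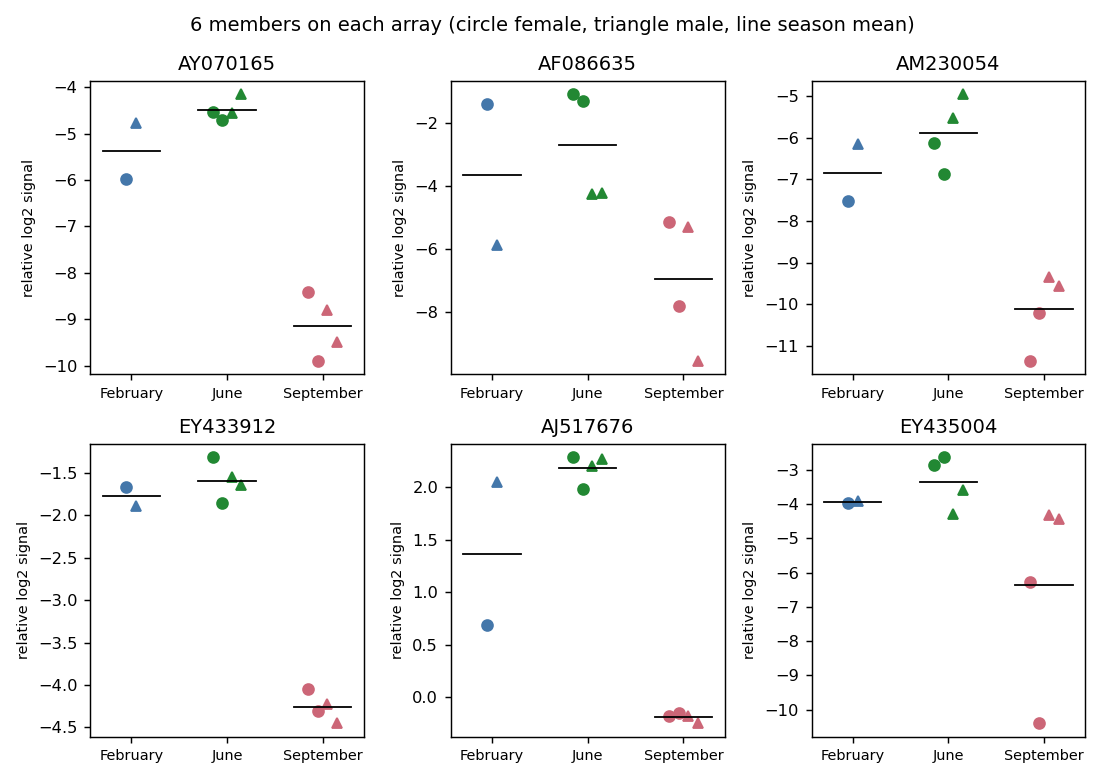
Relative log2 signal (vertical, log2) of 6 members on each array by month, with circles for females, triangles for males and lines for season means. EY433912 and AJ517676 have tight September values (SD 0.17 and 0.04), AF086635 divides by sex in February and June, and EY435004 has 1 September female at -10.4 below the others.

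The dim array decided the size of some differences. It held the lowest September value in 46 of the 63 transcripts (73.0%), against 30.7% of the other 1402 transcripts detected in June, and it lay over 2 units below the mean of the other September arrays in 16. EY435004 had -6.27 and -10.4 in September females and -4.33 and -4.42 in September males, against -2.86 and -2.63 in June females and -4.30 and -3.59 in June males. The September males lay only just below the lowest June male, and 1 September female was far below all others. Its September minus June difference was -3.01 with the dim array and -1.67 without it, and -1.83 with normexp. EY433712 behaved alike, with -6.39 and -10.6 in September females, -6.05 and -6.40 in September males, and -5.62 to -4.65 in June. Its September minus June difference was -2.10 with the dim array and -1.01 without it, and -0.93 with normexp. Its September minus February difference was -1.32 with the array and -0.23 without it, so the lower September level against February rested on 1 array. Over all 63 the median September minus June difference was -1.75, and -1.51 without the dim array. Without that array 53 of them still differed from June by at least 1, and 48 still met every condition of the rule. The part that the low brightness of this array plays in these values was not tested.

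**Figure D4:**
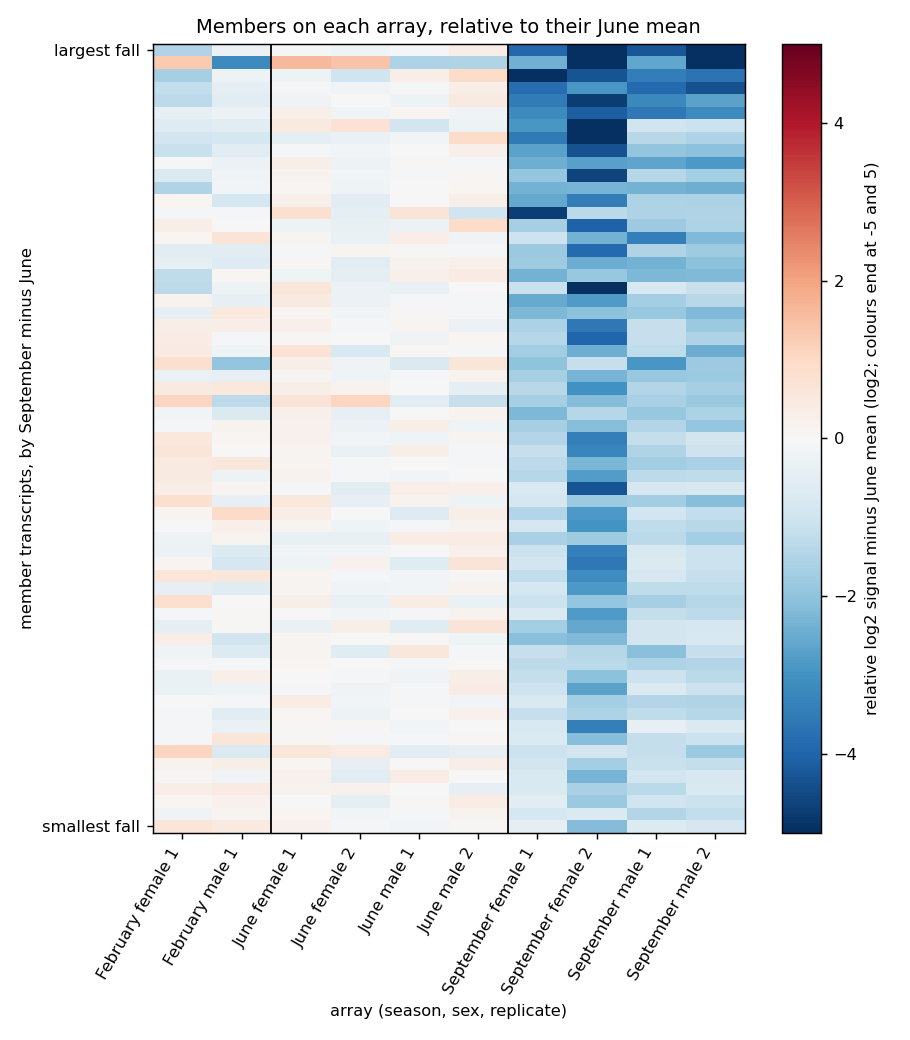
Each row is 1 of the 63 members, from the largest to the smallest September minus June difference, and each column 1 array; colour gives relative log2 signal minus the row's June mean (log2, ending at -5 and 5). September columns are blue throughout, deepest in September female replicate 2, and February columns vary around 0.

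February and June lay within 1 by the rule, and inside that range the differences were spread to both sides. The June minus February difference ran from -0.59 to 0.96 with a median of 0.08, and 39 of the 63 were higher in June and 24 lower. The median over all transcripts detected in June was 0.08 as well. AY070165, AF086635 and AM230054, which had the largest September differences, had June minus February differences of 0.89, 0.93 and 0.96. EY433853 had -0.54.

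Other probes of the same accession mostly pointed the same way. Of the 63 transcripts, 41 had at least 1 further probe among the 5139 tested, 89 probes in all. Of these, 84 (94.4%) had a lower mean in September than in both other months, against 31.4% of 2899 such probes of the remaining transcripts, and 73 (82.0%) were lower by at least 1, against 4.66%. All probes of an accession were read on these same 10 arrays, so this describes how far the signal belongs to the transcript rather than to one probe, and is no test of season. Of the 89, 10 were not well above background on any September array, so their differences have only a bound. Without such probes 74 of 79 (93.7%) were lower, against 30.05% of 2802 for the remaining transcripts. In 37 of the 41 transcripts every further tested probe was lower. The 4 exceptions, named after their values were seen, were EY435177, EY435851, EY436433 and EY436544. In EY435177 the probes divided: 2 had September minus June differences of -1.75 and -1.37, and the other 2 had 0.98 and 1.02. Against February these other 2 had 2.87 and 2.06. All 4 probes of EY435177 were well above background on at least 3 of the 4 September arrays. For EY436433 and EY436544 the one further tested probe gave -0.13 and -0.09 against June but 1.15 and 1.29 against February. It was well above background on 1 of 4 September arrays in both. The exceptional probe of EY435851 gave 0.01 against June and 0.88 against February, and was also well above background on 1 of 4 September arrays.

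The rule did not use the sex of the mussels, and females were compared with males by limma over all 5139 tested probes. The September arrays enter the rule through their mean, so a transcript with 1 very low September array was more easily chosen, and contrasts with September in them are not wholly independent of the choice. The June contrast is less touched, but not free of the choice. Every June array had to lie above every September array, which narrows the June spread of the 63. Their median absolute June sex difference was 0.16, against 0.26 in the other transcripts detected in June. Nothing about sex is therefore read from the shares with June arrays given below. In June, 0 of the 63 transcripts were called different between the sexes after Benjamini-Hochberg adjustment (lowest adjusted p = 0.55), as were 0.0% of all tested probes. At an unadjusted p under 0.05 there were 4 of 63, against 5.0% of all tested probes. Leaving out single arrays moved this number both ways: it was lower without a June array and higher without either September female array. The median female minus male difference was -0.04 over the 63, and -0.01 over the other transcripts detected in June. Both June females lay above both June males in 7 of the 63 (11.1%, against 23.9% of transcripts detected in June) and below both in 10 (15.9%, against 18.4%). The median SE of a June sex difference was 0.51, the same as in September, because the fit pools the spread of the June and September arrays. The June p-values therefore also carry September spread, the dim array included. With 2 arrays per sex and this spread, moderate differences could not be detected.

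In September, 0 of the 63 were called between females and males (lowest adjusted p = 0.92, 0.0% of all probes), and 7 had an unadjusted p under 0.05, against 3.87% of all tested probes. All 7 were lower in females; 2.1% of all tested probes had such a p with females lower. The count rested on single arrays: it was 2 without September male replicate 2, 4 without September male replicate 1 and 6 without the dim array. Without September female replicate 1, which leaves the dim array alone for September females, it was 32, and 902 of all 5139 tested probes had such a p, against 199 on all arrays. Both September females lay above both September males in 5 of the 63 (7.94%, against 14.4% of transcripts detected in June) and below both in 16 (25.4%, against 15.2%). The median female minus male difference was -0.53, and 0.06 without the dim array, which is 1 of the 2 female arrays. Over June and September together, 0 were called (lowest adjusted p = 0.92, 0.0% of all probes), and 7 had an unadjusted p under 0.05, against 5.1% of all tested probes; without each array in turn the number was 3 to 30. The median there was -0.30, and -0.01 without the dim array. The difference between the sexes in the September minus June change was called for 0 transcripts (lowest adjusted p = 0.95, 0.0% of all probes), and for 4 the unadjusted p was under 0.05, against 4.61% of tested probes. All 4 had the larger drop in females; 3.09% of tested probes had such a p in that direction. Without each array in turn the number was 2 to 31, the highest again without September female replicate 1. Its median was -0.52, and 0.14 without the dim array.

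Both sexes were lower in September than in June in all 63 transcripts, which the rule fixes, since no September array may reach a June array. The median change was -2.12 in females and -1.43 in males, and 50 of the 63 were at least 1 lower in both sexes, 11 in females only and 2 in males only. Without the dim array the median change was -1.52 in females, close to that in males, and 37 were at least 1 lower in both sexes, 7 in females only, 15 in males only and 4 in neither. EY435123 and EY433868 had the smallest sex differences over June and September, -0.01 each. EY435123 had -1.25 and -2.10 in September females and -1.82 and -1.57 in September males, with 0.14 and -0.49 in June females and 0.20 and -0.49 in June males. EY433868 had -6.35 and -7.30 in September females and -6.78 and -6.66 in September males, with -5.14 to -4.88 in June. In both the sexes overlapped within June and within September, while February had 1 array per sex.

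In 4 of the 63 (6.35%, against 18.7% of transcripts detected in June), females lay above males on all June and February arrays: AF086635, EY436080, EY435248 and EY436665. With the February sexes taken from the descriptions, this held for 3 others, EY433654, EY434081 and EY435004 (4.76%, against 5.19%), and for none of these 4. These names were taken after the values were seen. AF086635 had a female minus male difference of 3.04 in June (SE 1.51, adjusted p = 0.997 by limma, unadjusted p = 0.095) and of 4.47 between the 2 February arrays. That SE includes the September spread of AF086635, with males at -5.30 and -9.54. Its 5 tested probes gave June differences of 3.04 to 3.48. EY436080, chosen after its values were seen, had -4.46 in the February female and -6.86 in the February male, -4.92 and -4.48 in June females and -6.08 and -6.71 in June males, with -7.23 and -7.70 in September females and -7.16 and -7.40 in September males. The June females lay above both June males, and in September the sexes overlapped. Its June difference was 1.69 (SE 0.36, adjusted p = 0.55 by limma, unadjusted p = 0.0041), and its sex difference of the seasonal change was -1.87 (SE 0.51, adjusted p = 0.95 by limma, unadjusted p = 0.012). EY435248, also chosen afterwards, had a female minus male difference of 0.96 in June (SE 0.31, adjusted p = 0.76 by limma, unadjusted p = 0.022) and of 1.80 in February. Of its other 3 tested probes, 2 had June differences of 1.04 and 1.08, and the remaining one, well above background on all September arrays, had -0.16.

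Another 7 transcripts (11.1%, against 10.2% of transcripts detected in June) were lower in females than in males on all June and February arrays, AM230054 and EY434904 among them. With the February sexes taken from the descriptions there were 3, all of them others: EY434005, EY434854 and EY435798 (4.76%, against 8.26%). AM230054 had -1.26 in June (SE 0.51, adjusted p = 0.99 by limma, unadjusted p = 0.049), -1.38 in February and -1.33 in September. EY434904 had -0.77 in June (SE 0.62, adjusted p = 0.997 by limma, unadjusted p = 0.26) and -1.81 over June and September (SE 0.44, adjusted p = 0.92 by limma, unadjusted p = 0.0069). Its other tested probe had a June difference of the opposite sign, 0.27, and -1.22 over June and September. The kept probe had -8.35 and -9.96 in September females and -6.22 and -6.38 in September males, with -5.28 and -5.14 in June females and -4.96 and -3.91 in June males. Both September females lay below both September males, not only the one on the dim array. Its September minus February difference was -2.0, -1.26 without that array and -0.999 with normexp. None of these sex differences passed adjustment.

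**Figure D5:**
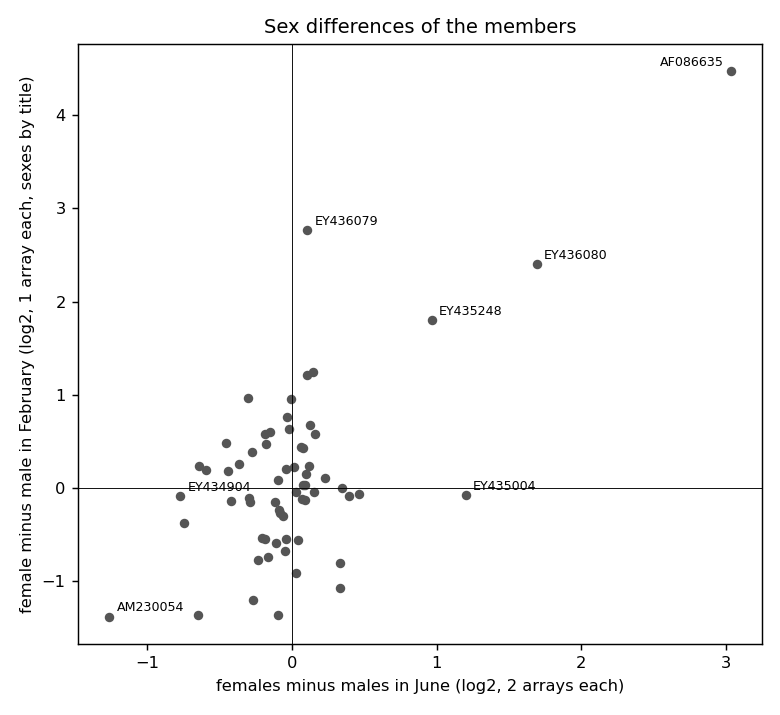
Each point is 1 of the 63 members, by its female minus male difference in June (horizontal, log2, 2 arrays per sex) and in February (vertical, log2, 1 array per sex by title). Most lie near 0 on both axes, and AF086635 (3.04 and 4.47), EY436080 and EY435248 lie to the upper right.

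The 63 came from several accession series on the array. EY accessions supplied 53 (4.48% of the EY transcripts detected in June), AM 2 (1.15%), AJ 2 (2.60%), AF 1, AY 2 and DQ 3. All 3 DQ transcripts detected in June, DQ184878, DQ184885 and DQ280008, were among the 63, as were 2 of 4 detected AY transcripts; these counts are small and were picked out after the values were seen. DQ184878 was 13.4 times lower in September than in June, DQ184885 6.76 times and DQ280008 5.37 times. Without the dim array these folds were 16.2, 4.68 and 3.23 in the same order. DQ280008 had -6.88 and -9.55 in September females and -6.34 and -6.65 in September males, with -5.05 to -4.77 in June. Its other 3 tested probes were not well above background on any September array, while all 4 June arrays detected them. They were at least 4.73-fold, 4.31-fold and 2.1-fold lower in September, with September signals under the dimmest reading well above background on that array raised to it.

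Accessions need not be separate genes. EY436119 and EY437043 differed by at most 0.25 on any of the 10 arrays and correlated across them at 0.996 (Pearson, a description over 10 shared arrays). They were picked as the closest pair among the members after the values were seen. All members share a lower September level by the rule, so high correlations between them are partly built in. EY436119 had -1.94 and -4.07 in September females and -2.35 and -2.47 in September males, and EY437043 had -1.87 and -3.99 in September females and -2.35 and -2.45 in September males. Whether they are the same transcript was not tested, since no sequences were used here.

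The threshold fell in a continuous range. Just inside it, the smaller of the 2 September differences was -1.01 in EY435851 (against February) and -1.03 in EY436541 (against June). Just outside it, EY434160 had -0.999 and EY434057 had -0.995, both against February. EY436541 had a September minus June difference of -0.65 without the dim array. The same rule turned round, for transcripts higher only in September, took 96 transcripts, with a median September minus June difference of 1.76 and a highest of 4.40.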

How the data were processed

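RNA was measured on 10 Agilent arrays with 1 dye (Cy3). The authors extracted spot values with Agilent Feature Extraction, version 10.5.1.1 per the file headers. Its processed signal, the intensity used here as deposited, has the background removed array by array and has no scaling across arrays. A deposited log2 table by the authors served as an alternative only, because its scaling and centring are not given in the sources used here. Its columns correlated with the log2 processed signals at 0.988 to 1.0 and had medians of 2.74 to 3.02.

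Control spots were left out. For each of 13654 probes the log2 signals of its spots were averaged. A probe counted as well above background on an array when the scanner software marked all of its spots so. Each array was scaled by its 75th percentile over the 2738 probes meeting this on all 10 arrays, giving the relative log2 signal. Of the probes of each of 3541 accessions, the one of highest mean was kept. The members, lists and tests were chosen with earlier results of these data known.

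Sex contrasts were fitted with limma 3.58.1 (R 4.3.3) to the 5139 probes well above background on at least 2 arrays, with 1 mean for each month and sex. The 4 residual degrees of freedom come only from June and September. Benjamini-Hochberg adjustment ran over these 5139 probes, and an adjusted p under 0.05 was a call. The fit was tested on simulated data with independent noise of the same size on every array. Those data had no dim array and no slide differences, so nothing about these arrays is read from them. Figures used Python 3.11.15 and matplotlib 3.10.9.

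Named members were those with the largest September minus June difference, by detection in September; the brightest probes; the largest and smallest sex differences; the largest sex difference of the seasonal change; the most tested probes; and those nearest the threshold, at most 2 of each. Others are marked as chosen after their values were seen. Alternatives were another percentile, quantile normalization, normexp background correction, the authors' values, leaving out spots flagged as outliers, leaving out each array, slide, scan date and replicate blocks, other filters and an intensity trend. The files lack the mean spot signal planned for normexp, so the median spot signal was used.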

Additional observations from a re-analysis of the deposited data

Results flagged for a closer look

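In EY433712, September female replicate 2 (-10.6) lay far from the other September arrays: the gap to its nearest neighbour was 0.925 of the range of the 4 arrays, above Dixon's critical value for 4 values. It was the only such array among 28 groups of 4 arrays looked at. These were June and September for each member named by the lists above and for the median over the 63. Members named after their values were seen, and all others, were not among the groups. The same array also stood apart there: at -7.30 in EY434005, with the other September arrays at -3.81 to -3.74, and at -9.89 in EY436665, with the others at -7.26 to -6.90. The 28 groups thus do not count how often it stood apart over the 63. Chance alone flags about 5% of such groups.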

How the results depend on the processing

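The number of transcripts that met the rule was 100 with the 75th percentile over all probes, 32 with normexp background correction, 39 with a threshold of 1.5, and 109 with every probe judged alone. It was 87 with quantile normalization, 70 with the authors' log2 values, 60 on slide 1 alone and 54 to 76 without each array in turn. The normexp and slide 1 sets shared 28 and 50 of the 63, and 17 of the 63 met the rule in all of 16 settings (5 ways of making the values, 10 arrays left out, slide 1 alone). The percentile over all probes moved the median September minus February difference of transcripts detected in June to -0.36, against 0.11, and that of the 63 to -2.20; the June minus February median of the 63 was -0.24 under it. Under normexp 58 of the 63 remained lower in September than in both other months, with a median of -1.24 against June, and 78.7% of their other probes were also lower than in both; the cause was not tested. Of the other probes detected on all June arrays, 98.7% were lower than in both without normexp. For other named members, normexp gave September minus June differences of -1.07 for EY433868 (-1.74 otherwise), -1.71 for EY434904 (-2.91) and -0.53 for EY435851 (-1.46), and September minus February differences of -1.48 for EY433868 (-2.24), -1.35 for EY435004 (-2.42), -0.35 for EY433712 (-1.32) and -0.23 for EY435851 (-1.01). Of 410 recomputed differences of named members, 30 moved by over 1 SD and 0 changed sign. Some of the 410 could not move: a February array has no part in September minus June, nor a June array in September minus February. Where the spread was wide, large moves stayed under 1 SD. The September minus February difference of EY433712, -1.32, counted as unmoved at -0.23 without the dim array. These numbers are therefore no measure of stability. Leaving out each array gave medians of -1.87 to -1.51 against June. Slide 1 alone gave smaller medians, -1.43 against June and -1.465 against February, where all arrays gave -1.754 and -1.727. No sex contrast called a member in 22 other fits, except that leaving out September female replicate 1, so that the dim array stood alone for September females, called 1 (EY435004, -6.03, adjusted p = 0.031 by limma; range of calls 0 to 1). Replicate numbers did not pair arrays (correlations of deviations -0.33 to 0.34), and the replicate block called 0 members in any sex contrast. With 2 arrays per sex in June and in September and 1 in February, the number of arrays limits the precision.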
